A study of Arabidopsis thaliana with 4 samples.

Results

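In seeds of Arabidopsis thaliana ecotype Columbia, 48 probe sets gave a signal at least 2-fold lower on each of the 2 trichostatin A (TSA) arrays than on each of the 2 untreated arrays. A probe set is the group of short oligonucleotides that reads 1 transcript on the array, and its signal is the brightness that the MAS5 software gives for it after biotin-labelled RNA has bound. The 48 were chosen from 8297 probe sets by this rule alone. Control probe sets were dropped, and the 4948 probe sets with a mean signal over the 4 arrays of at least 282.45 were kept. The members are those whose lower untreated value exceeded the higher TSA value by at least 1 on the scale of log2(signal + 30.8). They make up 0.970% of the probe sets kept. Because the rule used all 4 arrays, every difference between TSA and untreated seeds given for these probe sets is a description, and none was tested. The corresponding rule in the other direction found 88 probe sets (1.78%).

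The TSA group is 2 samples of seeds after 3 days of imbibition on agar medium with TSA under 16 h of light. Its concentration is 10 micromolar in the source label but 10 mM in the treatment protocol, a conflict that the labels leave unresolved. The untreated group is 2 samples of seeds of the same ecotype and age on the same medium without TSA, also under 16 h of light. The replicates came from separate treatments per the labels, and each sample was 1 array. Stratification is said to be absent for the TSA samples and is not mentioned for the untreated ones. No deletion, transgene or other agent is named for either group.

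Trichostatin A inhibits histone deacetylases, the enzymes that take acetyl groups off histone tails, and acetylated histones are found mainly at genes that are being transcribed. During imbibition a seed takes up water, leaves the programme of maturation and, if it germinates, starts to build root and shoot. A growing seedling remodels its cell walls with secreted enzymes. Among these are class III peroxidases, which use hydrogen peroxide to oxidise phenolics and can stiffen or loosen a wall, and xyloglucan endotransglucosylase/hydrolases, which cut and rejoin the xyloglucan chains between cellulose fibres. RNA came from whole samples, so fewer cells of a type and less RNA per cell cannot be told apart.

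The 2 TSA arrays were further from each other than the 2 untreated arrays. Over all 4948 probe sets, TSA replicates 1 and 2 had a median absolute log2 difference of 0.95, and untreated replicates 1 and 2 had one of 0.59. Of 50 control probe sets, 32 were at least 2-fold brighter on both replicate 2 arrays than on both replicate 1 arrays, and 0 were brighter the other way. Since a TSA and an untreated array share each number, each difference below is given within each number. None of the 50 control probe sets (0) met the rule for lowered probe sets, but 0.970% of all probe sets kept did, so 50 are too few to read this count. By limma, 0 of the 4948 were lower with TSA at an adjusted p of 0.05, and 50 were at an unadjusted p of 0.05 (1.01%).

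The probe table named 1 gene for 20 of the 48 probe sets, and listed none for the other 28. Of the 4948 probe sets kept, 2128 had 1 gene, 43 had several and 2777 had none listed. Class III peroxidases were the most frequent kind among the 20, with 5 probe sets for 5 genes. The rest of the 20 included a xyloglucan endotransglucosylase/hydrolase, a beta glucosidase, a relative of the cell wall protein SKU5, a jacalin-type lectin and a lipid-transfer-type protein.

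**Figure D1:**
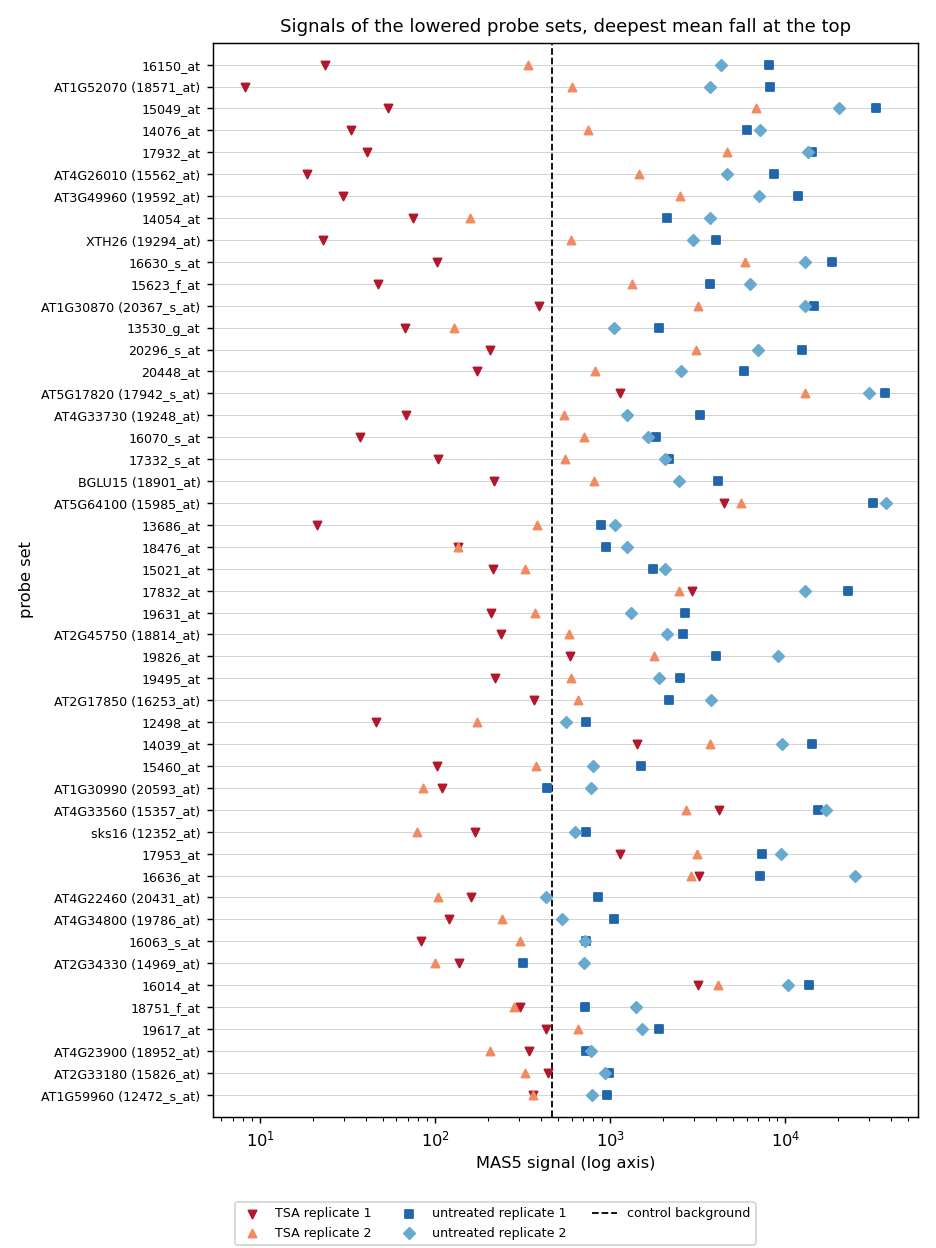
Signal of each of the 48 lowered probe sets (rows, deepest mean log2 difference at the top) on the 2 TSA arrays (triangles) and the 2 untreated arrays (square, diamond), on a log axis. The dashed line marks the highest mouse or yeast control signal, 465.9. In 20 rows only TSA replicate 1 lies at or left of the line, in 19 both TSA arrays do, and in 9 neither does.

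A signal at or below 465.9, the highest of the mouse and yeast controls, is not above background. A log2 difference that rests on such a TSA signal is the value computed from it, and the fall itself has only a lower bound, taken against 465.9. The largest computed differences among the 5 peroxidases were those of AT4G26010 and AT3G49960. The AT4G26010 probe set (15562_at) gave signals of 18.4 and 1464.9 on TSA replicates 1 and 2, and 8552.5 and 4661.1 on untreated replicates 1 and 2. Its log2 difference, TSA minus untreated, was -7.45 within replicate 1 and -1.65 within replicate 2. Both TSA arrays lay below both untreated arrays, but they were far apart: replicate 1 read below every mouse and yeast control of its array (lowest 29.4), while replicate 2 stood above the highest control of all arrays. Against the control level the untreated signal of AT4G26010 was at least 18.4-fold higher within replicate 1. AT3G49960 (19592_at) was likewise at background on TSA replicate 1 alone, with signals of 29.7 and 2489.7 with TSA against 11713.0 and 7062.0 without. Its computed log2 differences were -7.60 within replicate 1, where the untreated signal was at least 25.1-fold higher, and -1.49 within replicate 2.

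AT1G30870 (20367_s_at), also a class III peroxidase, read 392.2 and 3180.5 with TSA and 14622.9 and 12972.0 without. Its 392.2 was under 465.9 but above 309.8, the highest control of TSA replicate 1. Here the untreated replicates nearly coincided, and the log2 differences were -5.11 within replicate 1 (untreated at least 31.4-fold higher) and -2.02 within replicate 2. The peroxidase AT5G17820 (17942_s_at) read 1130.9 and 12987.3 with TSA and 36912.4 and 30112.3 without. It stayed above the control signals on all 4 arrays, so neither of its log2 differences, -4.99 within replicate 1 and -1.21 within replicate 2, rests on a value at background. The fifth, AT5G64100 (15985_at), was the evenest of the family, with 4446.3 and 5560.5 on the TSA arrays against 31534.5 and 37688.3 on the untreated ones. Its mean signal was 5003.4 ± 788 with TSA and 34611.4 ± 4351 without (SD, n = 2 each), a ratio of 0.145. Its log2 differences of -2.82 and -2.75 in replicates 1 and 2 were nearly equal. IDs ending in _s_at are built from sequence that several transcripts can share, so AT1G30870 and AT5G17820 may hold signal of related peroxidases.

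The whole family was then read from a list of its 73 loci, which was written after the values of these 5 had been seen and is not tested. A total of 51 probe sets matched 46 of these loci, and 37 probe sets of 33 loci passed the filter on mean signal. Of these 37, 5 were members (13.5%, against 0.970% of all probe sets kept). Without overlap between the groups, 8 of the 37 were lower with TSA (21.6%, against 11.3% of all probe sets kept). The count of 5 was also found under median centring and quantile normalization. With 1 array left out it was 23 without TSA replicate 2, 7 without TSA replicate 1, 6 without untreated replicate 1 and 8 without untreated replicate 2.

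Most of the family was low on TSA replicate 1 and not on TSA replicate 2. On TSA replicate 1, 29 of the 37 probe sets were below both untreated arrays (78.4%, against 34.2% of all probe sets kept), 4 were above both (against 35.9%), and 26 were at least 2-fold below untreated replicate 1 (70.3%, against 15.9%). Of those 29, 21 were at or below the control level on TSA replicate 1, and 23 were above it on both untreated arrays. On TSA replicate 2, 11 were below both untreated arrays (29.7%, against 35.1%) and 16 were above both (43.2%, against 38.3%). The median log2 difference of the 37 was -2.02 within replicate 1 and 0.22 within replicate 2, where all probe sets kept had 0.09 and -0.07. With every signal below the control level raised to it, the family's median was -0.56 within replicate 1 and 0.00 within replicate 2, and 14 of the 37 were at least 4-fold lower within replicate 1 (37.8%, against 3.98%). Among the 32 that were not members, 24 were below both untreated arrays on TSA replicate 1, while on TSA replicate 2 only 6 were below both and 16 above both. The peroxidase AT3G32980 (15969_s_at) shows the common pattern: 349.0 and 26459.9 on TSA replicates 1 and 2, which flank the untreated 7291.3 and 10422.3. AT5G66390 (18312_s_at) was at 20.1 and 1810.2 with TSA and 1424.1 and 1491.9 without, so it too was low on TSA replicate 1 alone. The 5 members thus differ from most of the family in their signal on TSA replicate 2, which is the property the rule selected. Beside the 5, AT1G44970, AT2G18980 and AT4G31760 were lower on both TSA arrays without reaching 2-fold in all 4 array pairs. For AT1G44970 (105.6 and 181.5 with TSA, 477.6 and 375.6 without) only untreated replicate 1 was above the control level.

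**Figure D2:**
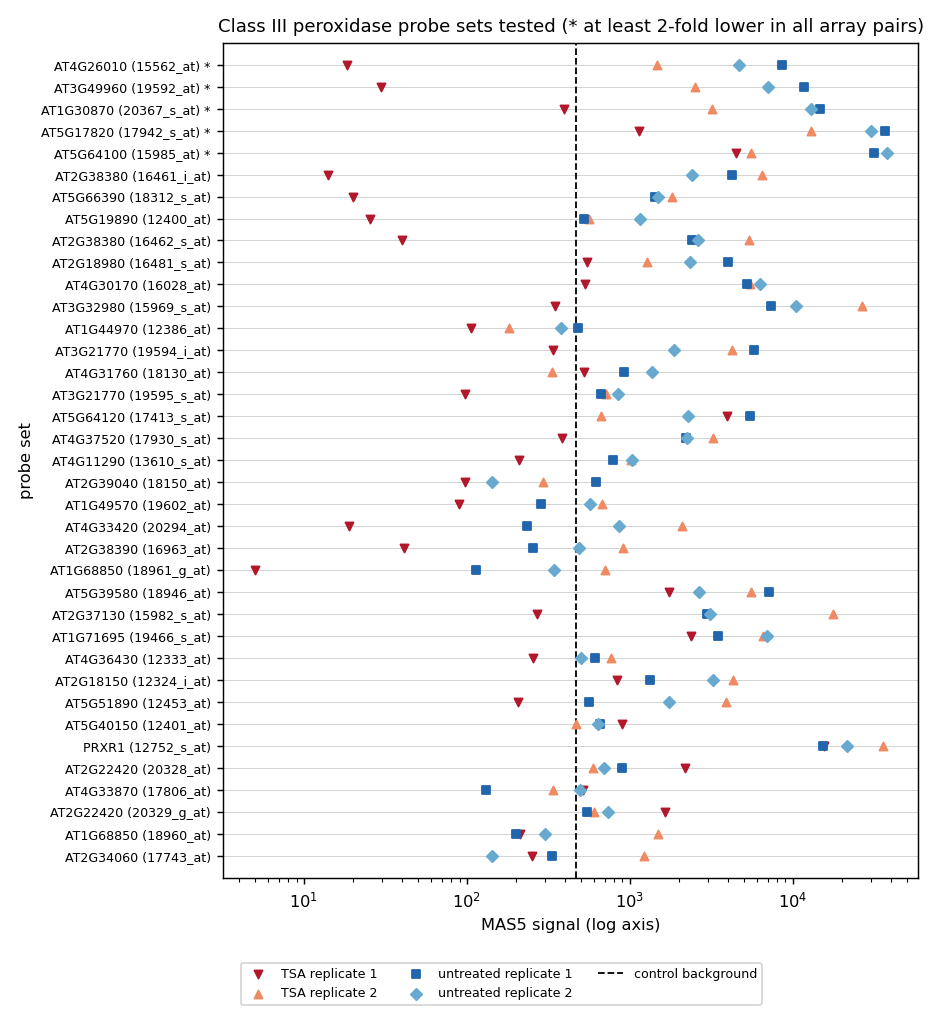
Signal of the 37 class III peroxidase probe sets kept, on the 2 TSA arrays (triangles) and the 2 untreated arrays (square, diamond), on a log axis and sorted by mean log2 difference. The dashed line marks the highest mouse or yeast control (465.9), and asterisks mark the 5 members. TSA replicate 1 is below both untreated arrays in 29 rows and TSA replicate 2 in 11.

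Other members act on wall carbohydrates or resemble wall proteins. XTH26 (19294_at), a xyloglucan endotransglucosylase/hydrolase known from root hairs, had signals of 22.8 and 592.0 on the TSA arrays, against 4003.3 and 2975.6 on the untreated arrays. Its log2 differences were -6.23 within replicate 1 and -2.27 within replicate 2, and the untreated signal was at least 8.59-fold higher within replicate 1 and 5.03-fold higher within replicate 2. Of 6 probe sets named for the XTH family 4 were kept, and XTH26 was the only member among them (25.0%, against 0.970% of all probe sets kept). XTH32 (12598_at) was also lower on both TSA arrays, at 144.7 and 2436.3 with TSA against 3331.2 and 6956.9 without, and missed the rule in 1 of the 4 array pairs, TSA replicate 2 against untreated replicate 1. The other kept probe sets of the family were not lower on both TSA arrays. XTH33 (19490_at) read 495.1 and 2393.9 with TSA and 508.8 and 456.2 without, and EXGT-A3 (17103_s_at) 4155.1 and 5525.3 with TSA and 3259.2 and 4749.9 without. Without overlap between the groups, 2 of the 4 were thus lower with TSA (against 11.3% of all probe sets kept). On TSA replicate 2 the other 2 of the 4 were above both untreated arrays (against 38.3%). With 4 probe sets these shares say little about the family.

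BGLU15 (18901_at), a beta glucosidase, an enzyme class that releases glucose from its conjugates, read 216.2 and 809.6 with TSA and 4109.1 and 2450.6 without. Its log2 differences were -4.07 (untreated at least 8.82-fold higher) and -1.56 within replicates 1 and 2. Of the 4 probe sets of beta glucosidases kept, BGLU15 alone was a member (25.0%, against 0.970% of all probe sets kept), and the others differed in direction. BGLU21 (15954_at) read 24603.4 and 10655.3 with TSA and 25925.5 and 23757.0 without. It was lower within each replicate number, but its groups overlapped. BGLU25 (17109_s_at) read 24507.3 and 8215.4 with TSA against 10824.8 and 8111.8 without. Its log2 differences were 1.18 within replicate 1 and 0.02 within replicate 2, and its groups overlapped too. BGLU46 (19451_at) read 72.9 and 567.4 with TSA and 369.8 and 505.0 without, with TSA replicate 2 above both untreated arrays. The gene sks16 (12352_at) encodes a protein similar to SKU5, a wall-associated protein that affects the direction of root growth. It was dim throughout, at 167.9 and 78.2 with TSA and 720.8 and 625.6 without. Both TSA signals were below the control level, so they have no order, and the untreated signals were at least 1.44-fold higher as a geometric mean. The only other probe set of its family, sks15 (12365_at), was at 125.4 and 173.6 with TSA against 707.7 and 333.8 without. Not all wall transcripts were low with TSA. The cell wall loosening list, 1 of the 12 lists read below, had 4 probe sets kept and 0 members. On each TSA array 3 of these 4 were above both untreated arrays and 1 was below both. EXPA8 (19660_at) read 7695.2 and 11396.6 with TSA against 1371.6 and 1812.9 without.

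A further group of members belongs to families of secreted, stress-related or lipid-binding proteins. AT1G52070 (18571_at), of the jacalin-type lectins, proteins that bind sugars, read 8.2 and 599.6 with TSA and 8208.8 and 3683.9 without. The computed log2 differences were -7.72 within replicate 1 and -2.56 within replicate 2, and the untreated signals were at least 10.4-fold higher as a geometric mean. AT4G33730 (19248_at), of the cysteine-rich secretory family that also holds pathogenesis-related protein 1, was at 68.0 and 545.6 with TSA and 3241.9 and 1246.0 without. Both showed the lower signal on TSA replicate 1. AT4G33560 (15357_at), of a family named for its response to wounding, had 4153.6 and 2716.1 on the TSA arrays against 15382.1 and 17057.7 on the untreated arrays, and thus stood well above the control signals on all of them. Its log2 differences of -1.88 and -2.64 put the deeper fall in replicate 2.

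AT4G22460 (20431_at), of the lipid-transfer type, and AT1G30990 (20593_at), of the polyketide cyclase family related to major latex proteins, were dim members. AT4G22460 had 160.5 and 103.5 with TSA and 847.2 and 428.5 without. AT1G30990 had 109.1 and 84.9 with TSA and 436.0 and 775.3 without. For each of them 1 untreated array was itself below 465.9, so their folds against that level are poorly determined. For AT1G30990 this was untreated replicate 1, whose own highest control was 165.7, so its 436.0 was above the controls of its array.

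A group of 4 members belongs to families of metabolic enzymes. AT2G17850 (16253_at), which has a rhodanese domain, a fold of sulphur-transferring enzymes, had 365.9 and 655.6 with TSA and 2173.5 and 3760.5 without. Its computed log2 differences were -2.47 in each replicate, with TSA replicate 1 under the control level. AT2G45750 (18814_at), a methyltransferase that uses S-adenosylmethionine, was at 237.3 and 582.0 with TSA, against 2599.4 and 2113.8 without. AT1G59960 (12472_s_at), of the aldo-keto reductases, had the smallest computed mean difference of the 48, with 362.4 and 361.1 on the TSA arrays against 953.9 and 789.8 on the untreated arrays. Its log2 differences were computed as -1.32 and -1.07, from TSA signals that were both under the control level. AT4G23900 (18952_at), a nucleoside diphosphate kinase, an enzyme that keeps nucleoside triphosphates in balance, lay just inside the rule at 340.8 and 205.8 with TSA and 723.5 and 771.1 without.

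The last 3 named members were AT4G34800, AT2G34330 and AT2G33180. AT4G34800 (19786_at), of the small auxin-up RNA family, whose transcripts respond quickly to the growth hormone auxin, read 119.6 and 239.7 with TSA and 1043.3 and 531.4 without. AT2G34330 (14969_at) was at 137.2 and 99.1 with TSA and 316.9 and 710.5 without. Its replicate 1 untreated signal was under 465.9 but above 165.7, the highest control of that array. AT2G33180 (15826_at) was at 437.8 and 326.1 with TSA, against 985.3 and 928.0 without.

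The 28 members with no gene listed, of 48 in all, held 6 of the 10 largest computed mean differences, near their share of the members. Probe set 16150_at had the largest, at 23.3 and 340.4 with TSA, against 8030.5 and 4297.1 without. Both TSA signals were at the level of the controls, so its untreated signal, as a geometric mean, was at least 12.6-fold above background while its TSA level has only an upper bound. Probe set 14054_at was at 74.7 and 156.8 with TSA and 2105.4 and 3687.6 without, with computed log2 differences of -4.34 and -4.31. Both TSA signals were under the control level there too, and the untreated signals were at least 4.52-fold higher within replicate 1 and at least 7.92-fold higher within replicate 2.

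Probe set 15049_at gave 54.0 and 6812.0 with TSA, against 32699.7 and 20116.9 without, and computed log2 differences of -8.59 within replicate 1 and -1.56 within replicate 2. TSA replicate 1 was under the control level, so TSA replicate 2 was at least 14.6-fold brighter than it, whereas the untreated replicates were within 2-fold. Probe sets 17932_at (40.6 and 4627.9 with TSA, 14246.2 and 13486.3 without) and 16630_s_at (101.7 and 5845.4 with TSA, 18484.9 and 12934.5 without) showed the same layout. Probe set 17832_at, among the brightest, did not: it read 2929.3 and 2453.4 with TSA and 22619.7 and 12875.9 without. Probe set 16636_at was even on the TSA arrays (3222.0 and 2892.7) and uneven on the untreated ones (7164.8 and 24978.9), the reverse of the usual case. Over the 28, the computed log2 difference ranged from -8.59 to -1.14 within replicate 1 and from -4.31 to -1.02 within replicate 2. For 25 of them the fall was larger within replicate 1, as it was for 14 of the 20 named ones.

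Without TSA most members were bright. Their mean untreated signal ranged from 513.7 to 34611.4 with a median of 2931.8, where the median over all probe sets kept was 968.3. The mean untreated signal was above the median of all probe sets kept for 38 of the 48, above their 75th percentile for 25 and above their 90th percentile for 13. Both untreated signals exceeded the highest control for 45 of the 48 (93.8%, against 64.7% of all probe sets kept). A 2-fold gap above background needs a bright untreated signal, so the rule itself favoured bright probe sets. Brightness also depends on the probes, and it does not rank transcripts by abundance. On the TSA arrays the median of the members' mean signal was 385.2, and 0 of the 48 were above the 90th percentile of all probe sets kept.

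**Figure D3:**
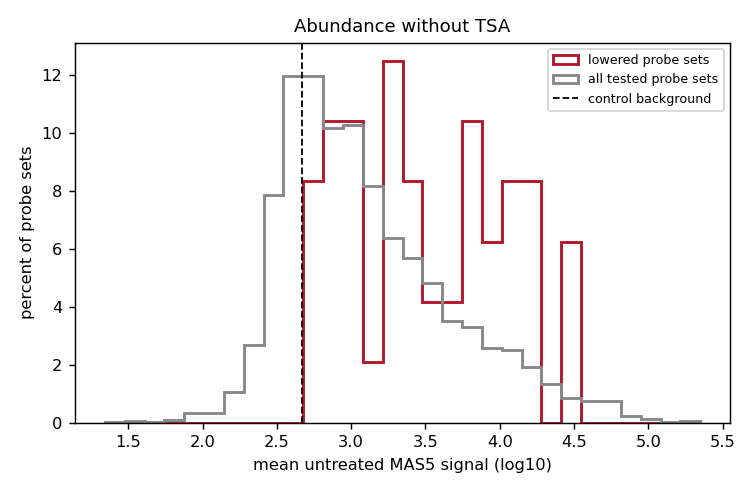
Distribution of the mean untreated signal (horizontal axis, log10 scale) of the 48 lowered probe sets and of all 4948 probe sets kept, each as a percent of its own set (vertical axis). The lowered probe sets range from 513.7 to 34611.4, with a median of 2931.8 against 968.3 for all probe sets kept, and all lie right of the control level at 465.9 (dashed line).

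On the TSA arrays 39 of the 48 members were at or below 465.9, the highest signal of any of the 8 controls for mouse and yeast genes, which plant RNA should not contain. These 39 were all at or below it on TSA replicate 1, and 19 of them were so on TSA replicate 2 as well. By this level no member (0) was at background on TSA replicate 2 alone. Against the highest control of the same array, 33 members were at or below it on TSA replicate 1 and 19 on TSA replicate 2. Of the 4948 probe sets kept, 809 and 960 were so. Over all probe sets kept, 28.0% were at or below the control level on TSA replicate 1, 20.7% on TSA replicate 2 and 9.14% on both. The rule selects low TSA signals, so the members' shares were in part fixed by it.

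The 19 members at background on both TSA arrays were the dimmer ones, with mean untreated signals from 513.7 to 6163.8 and a median of 956.6. Taking the control level as the ceiling of the TSA signal, the geometric mean of the untreated signals was higher by at least 1.02-fold to at least 12.6-fold, and by at least 2-fold for 10 of the 19. Named among them were AT1G30990, sks16, AT4G22460, AT4G34800, AT2G34330, AT4G23900, AT2G33180 and AT1G59960.

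The 20 members at background on TSA replicate 1 alone had mean untreated signals from 1709.0 to 26408.3, with a median of 4568.0. They include the peroxidases AT4G26010, AT3G49960 and AT1G30870, with XTH26, BGLU15 and the lectin AT1G52070. With TSA replicate 1 taken at the control level, their signal on TSA replicate 2 was higher than on TSA replicate 1 by at least 1.17-fold to at least 14.6-fold, with a median bound of 1.67-fold. Their median log2 difference within replicate 1 was then -3.39 as an upper limit, and that within replicate 2 was -1.65. These 20 were picked out by a low TSA replicate 1, which favours the larger fall there.

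The 9 members above the control level on both TSA arrays were AT5G17820, AT5G64100, AT4G33560 and 6 probe sets with no gene listed. They were above it on both untreated arrays too, with mean untreated signals from 6566.6 to 34611.4. For these 9 both ends of each difference were measured above background, and their median log2 difference was -2.71 within replicate 1 and -2.33 within replicate 2. The peroxidase AT5G17820 had the deepest mean fall of the 9 and the probe set 16014_at (3183.1 and 4101.6 with TSA, 13646.0 and 10395.8 without) the smallest.

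The depth of the fall differed between the replicates. Within replicate 1 the members' computed log2 difference ranged from -8.59 to -1.02, with a median of -3.32. Within replicate 2 it ranged from -4.31 to -1.02, with a median of -1.75. The fall was larger within replicate 1 for 39 of the 48, where over all probe sets kept the difference was the more negative one within replicate 1 for 45.8%. With the pairs crossed, so that each TSA array was set against the untreated array of the other number, it was larger for TSA replicate 1 in 37 of 48. A fall of at least 8-fold was seen for 27 members within replicate 1, for 4 within replicate 2 and for 3 within both. Among all probe sets kept, 3.70% fell that far within replicate 1 and 0.667% within replicate 2. These values include TSA signals at background. With signals raised to the control level, the members' median was -2.32 within replicate 1 and -1.52 within replicate 2, and the fall was larger within replicate 1 for 37 of the 48 (44.5% of all probe sets kept). For the 19 members at background on both TSA arrays, that order rests on the untreated signals alone, since their raised TSA values are equal. At least an 8-fold fall was then met by 15 members within replicate 1 and 3 within replicate 2, against 1.88% and 0.101% of all probe sets kept.

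Of the members, 18 had a distance of 4-fold or more between their computed TSA signals (37.5%, against 21.2% of all probe sets kept), and 0 had it between their untreated signals (against 5.09%). With signals raised to the control level, the TSA replicates were that far apart for 7 members (14.6%, against 12.8% of all probe sets kept), a share near that of all probe sets. For 37 members the signal was lower on TSA replicate 1 than on TSA replicate 2, as it was for 51.8% of all probe sets kept. The members' median absolute log2 difference was 1.39 from one TSA replicate to the other and 0.53 from one untreated replicate to the other. The computed falls of 20 members were over 2 apart on the log2 scale, and those of 8 members with signals raised to the control level, each time with the larger fall within replicate 1. Over the 48 members the falls within the 2 replicates were almost uncorrelated (Pearson's r = -0.04, across probe sets that share the same 4 arrays and a rule that limits both falls). Among the 88 probe sets raised by the mirrored rule, the median log2 difference was 2.53 within replicate 1 and 2.18 within replicate 2. The difference between the lowered and the raised probe sets in this respect was not tested.

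**Figure D4:**
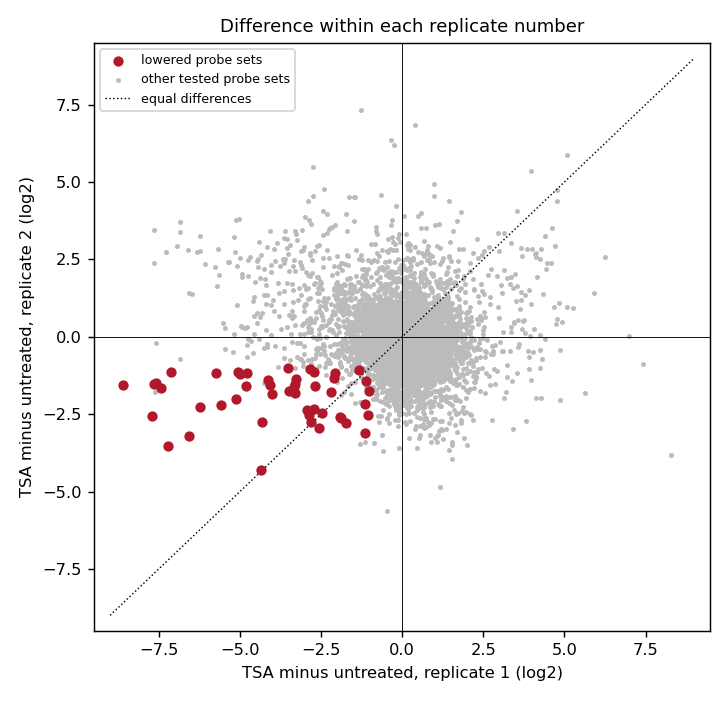
Log2 difference, TSA minus untreated, within replicate 1 (horizontal axis) and within replicate 2 (vertical axis) for the 48 lowered probe sets and the other probe sets kept. The dotted line marks equal differences. Of the 48 lowered probe sets, 39 lie on the side of the larger fall within replicate 1, where the computed values reach -8.59, against -4.31 within replicate 2. On TSA replicate 1, 39 of the 48 signals are at background.

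At the edge of the rule, the members just inside were 15460_at, AT4G23900, AT2G33180 and AT2G34330, with gaps of 1.02, 1.02, 1.03 and 1.05 on the log2 scale. Just outside were AT4G25790 (18970_at), AT3G48140 (13093_at), 17994_r_at and ATPMEPCRB (19267_s_at), with gaps of 0.99, 0.99, 0.99 and 0.98. AT4G25790, of the same secretory family as AT4G33730, was at 129.0 and 895.2 with TSA, against 1829.2 and 1813.2 without. ATPMEPCRB, a pectin methylesterase, an enzyme that changes wall pectin, had 459.3 and 933.7 with TSA against 2508.7 and 1866.8 without. AT3G48140 was bright on all arrays, at 31984.1 and 36287.6 with TSA and 81241.0 and 72283.6 without. The filter on mean signal left out 42 probe sets that met the 2-fold rule, of which the brightest, AT2G33710 (12503_at), had a mean signal of 248.9. The dimmest member, AT2G34330, had a mean of 315.9.

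None of the 20 lowered probe sets with a gene listed was on the 12 gene lists drawn up for seed and seedling programmes. The lists cover 188 names. The other 28 lowered probe sets have no gene listed and could not be matched. Only 24 probe sets of 7 lists were among those kept, and 0 of them were members, where 0.970% of all probe sets kept were. For storage proteins, regulators of maturation and abscisic acid signalling, gibberellin, histone deacetylases and defence, no probe set was matched to a listed gene, so these lists gave no value. The counts of 0 for the others rest on 1 to 6 probe sets each: oil body 1, late embryogenesis abundant 6, light harvesting and photosystem 6, Calvin cycle 3, glyoxylate cycle and fatty acid oxidation 1, cell wall loosening 4 and histones 3 (the core histones HIS4 and HTB2 and the linker histone HIS1-3).

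Photosynthesis transcripts showed how far the 2 TSA samples were apart. All 6 light harvesting and photosystem probe sets (3 genes) were below both untreated arrays on TSA replicate 1 and above both on replicate 2. So were all 3 of the Calvin cycle. Over all probe sets kept, 34.2% were below both on TSA replicate 1 and 38.3% were above both on TSA replicate 2. LHCB4.1 (15995_at), an antenna protein of photosystem II, read 1351.7 and 105671.1 with TSA and 21118.8 and 19242.6 without. The 6 probe sets listed as late embryogenesis abundant or dehydrin read 5 genes. TSA replicate 1 exceeded both untreated arrays at 4 of them (against 35.9% of all probe sets kept) and TSA replicate 2 at 5 (against 38.3%). The deeper falls of the lowered probe sets thus lay on the array where photosynthesis transcripts were low, and the part of that difference in the result was not tested. Of the markers drawn up for the seed (12), the green seedling (8) and the root (3), only RCA of the seedling had a probe set of its own, at 3706.4 and 70795.0 with TSA against 16025.7 and 14546.6 without. The labelled tissue could therefore not be checked against seed or root markers.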

How the data were processed

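The authors deposited 1 intensity for each probe set and array, on a linear scale, and the submitters' processing notes name MAS5 as the tool. The tool version, scaling target and detection calls are not stated in the sources read. A 2% trimmed mean taken per array lay between 1502.6 and 1502.7, so the arrays were not rescaled. From these values log2(signal + 30.8) was computed, where 30.8 is the 10th percentile of all signals, which understates differences of dim probe sets. The 40% of probe sets with the lowest mean signal were left out. The limma fit (limma 3.58.1, R 4.3.3, lmFit and eBayes with intensity trend, Benjamini-Hochberg) used all 4 arrays and no block, and was tested on simulated data. With arrays, their number (2 per group) limits the precision.

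Genes were named from the platform's annotation table where it gave a single gene (3794 of 8297 probe sets, 70 with several, 4433 with none), updated through the RefSeq gene table, whose coordinates are not used. Roles are background knowledge. The probe sets, gene lists and peroxidase family were chosen with earlier results of these data known. Named one by one are all members with a gene, and of the rest those with the largest mean difference, the brightest untreated signal, the most and least equal falls, or a place at the edge of the rule.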

Additional observations from a re-analysis of the deposited data

How the results depend on the processing

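The count of 48 was 54 with median centring, 53 with quantile normalization, 52 with an offset of 1, 42 with an offset of 100, and 69 and 37 with the lowest 20% and 60% left out. It was 90 with no filter, where dim probe sets enter, 11 for 4-fold in all pairs and 558 for any gap above 0. It was 555 without TSA replicate 1, 554 without TSA replicate 2, 136 without untreated replicate 1 and 166 without untreated replicate 2, since fewer pairs must then be 2-fold apart. The count of 5 peroxidases was 2 for 4-fold in all pairs and 5 to 6 under the scalings, offsets and filters, and from 6 to 23 with 1 array left out, all chosen after seeing the data. The 39 members at background on a TSA array were 36 against each array's own controls, 40 at double the level and 37 after quantile normalization. They were 16 against the median of the controls and 6 against the lowest 10% of all signals, which are lower bars by construction. The median log2 difference of the members (-2.68) was -2.14 with signals floored at the control level, and from -3.13 to -1.89 with 1 array left out. The 39 members with the larger fall within replicate 1 numbered 36 to 39 under the scalings, offsets, floor and crossed pairs. Under the floor, the untreated signals alone order the falls of the 19 members at background on both TSA arrays. With signals floored at the control level, a setting added for these after seeing the data, the 27 and 4 members at least 8-fold lower within replicates 1 and 2 were 15 and 3, the 18 with TSA replicates at least 4-fold apart were 7, the 20 with falls over 2 apart were 8, and the peroxidase family's median of -2.02 within replicate 1 was -0.56.

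With the replicate number as a block limma called 0 lower probe sets, and 55 at an unadjusted p of 0.05, and leaving out 1 array gave 0 to 134. The 134 came without TSA replicate 2, in a fit that takes the spread from the untreated arrays alone and assumes it for the remaining TSA array. All other settings gave 0. Deviations of same-numbered arrays had r = 0.14 across probe sets, and 2 pairs are too few to establish pairing.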
